A study of Homo sapiens with 6 samples.

Results

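The NRF2 pathway genes described here are 10 of the 52401 genes in the deposited table of group means: NFE2L2, KEAP1, GCLC, GCLM, TXNRD1, SRXN1, NQO1, AKR1C1, AKR1B10 and HMOX1. They were taken by gene name, and each name had a single row. The genes were chosen by name, and with the group means, fold changes and adjusted p-values of these samples known. Levels and differences of the 10 genes are therefore a description. The deposited p-values are given as the authors' record for each gene, and the number of genes called is not evidence about the pathway.

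RNA from 2 derivatives of MCF10A, an immortalised and non-tumorigenic human mammary epithelial line, was compared with 3 libraries per group. The control line stably expresses mCherry, a red fluorescent protein, after infection with 1 retroviral vector and selection with puromycin. The flotillin line stably co-expresses Flotillin1-HA and Flotillin2-mCherry after infection with 2 retroviral vectors and selection with puromycin and hygromycin. Both lines were grown in the same medium with horse serum, insulin, EGF, hydrocortisone and cholera toxin, and each group is a single stable line, so flotillin level, vector number, hygromycin selection and the line itself cannot be told apart. The labels do not state whether separate cultures gave the 3 samples of each line. The p-values then cover only the spread among these samples, and that spread may be technical.

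NRF2, the product of NFE2L2, is a transcription factor that drives genes of glutathione and thioredoxin metabolism, quinone reduction and heme breakdown. In unstressed cells KEAP1 holds it and brings it to a CUL3 ubiquitin ligase for destruction. Oxidants and electrophiles modify KEAP1, and NRF2 then accumulates and binds antioxidant response elements together with small MAF proteins. The control acts mostly on the protein, so the NFE2L2 transcript is not a measure of NRF2 activity.

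The shared core of the antioxidant response element, written TGACNNNGC, was searched on both strands of the RefSeq start-site windows (GRCh38.p14, 250 bases before to 50 after each start). Windows were matched for 8 of the 10 genes, all but HMOX1 and AKR1B10, and 3 of the 8 held a match: KEAP1, GCLM and TXNRD1. Across all genes with a window, 4384 of 27305 (16.1%) held one. By window, the share was 4 of 11 against 13.3% of 35116. The 6 matches are printed because they are the stretches where these genes carry the letters of the element. Capitals mark the match, and each is written 5′ to 3′ on the strand that reads TGAC. Distances are counted from the middle base of the match, so the match given as 4 bases before a start site reaches that site.
KEAP1, chr19:10502784-10502812, + strand, 27 bases before the start site: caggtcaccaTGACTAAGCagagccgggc
KEAP1, chr19:10502807-10502835, - strand, 50 bases before the start site: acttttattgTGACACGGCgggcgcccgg
GCLM, chr1:93909446-93909474, + strand, 30 bases before the start site: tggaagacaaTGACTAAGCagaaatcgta
TXNRD1, chr12:104215670-104215698, + strand, 95 bases before an upstream start site: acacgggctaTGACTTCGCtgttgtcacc
TXNRD1, chr12:104215761-104215789, - strand, 4 bases before the same start site: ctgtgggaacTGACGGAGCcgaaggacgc
TXNRD1, chr12:104286920-104286948, - strand, 98 bases before a downstream start site: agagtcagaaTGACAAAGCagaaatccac
KEAP1 and GCLM carried the same 9 letters, TGACTAAGC, close to the start site and on the strand opposite to the gene. For KEAP1 the start site meant is the downstream one, and the window of its upstream start site held 0 matches. A match is a description of the letters and not evidence of binding, and no match says only that the letters are not in that window.

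Levels below are normalized read counts, that is, reads divided by the size factor of the library. The deposited columns are group means; the reads of each library were solved from them for all 10 genes, and the libraries are called library 1 to 3 in order of falling size factor, which says nothing about replicate number. They hold between 18769903 and 19855248 reads per library in the solved genes. As a check of the labels, FLOT1 had authors' means of 1474 in control and 16771 in flotillin cells, and FLOT2 of 3727 and 41052. Library 3 of each group stood apart. All 14 cell cycle markers of a fixed list, such as MKI67 and TOP2A, were higher there than in the mean of libraries 1 and 2, by 3.92-fold to 12.997-fold in control and 2.13-fold to 6.45-fold in flotillin cells. Results are therefore also given without these 2 libraries. Leaving them out does not make the groups alike in these markers. The summed normalized counts of the 14 markers were 8386 and 18034 in control libraries 1 and 2. In flotillin libraries 1 and 2 they were 22230 and 20731.

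In the authors' deposited table, 9 of the 10 genes had an adjusted p under 0.05 and a higher level in flotillin cells, where 11.6% of all 19733 tested genes were called higher, 12% lower and 23.6% either way. The remaining gene, AKR1B10, was lower with an adjusted p of 0.185. The FPKM table called 7 of the 10 higher and 1 lower at a q under 0.05, and 6.93% and 10% of its 17022 tested genes. The median log2 fold change of the 10 genes was 1.12, beside a median of -0.04 for all 19733 tested genes. For the 11463 genes whose mean reached 100 the median was 0.11. In 8 of the 10 genes every flotillin library lay above every control library, which held for 24.2% of the 15912 genes with solved reads whose mean reached 10; 21.1% lay wholly below, so 45.2% did not overlap. Since the genes were chosen with these values known, nothing is read from these shares.

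**Figure D1:**
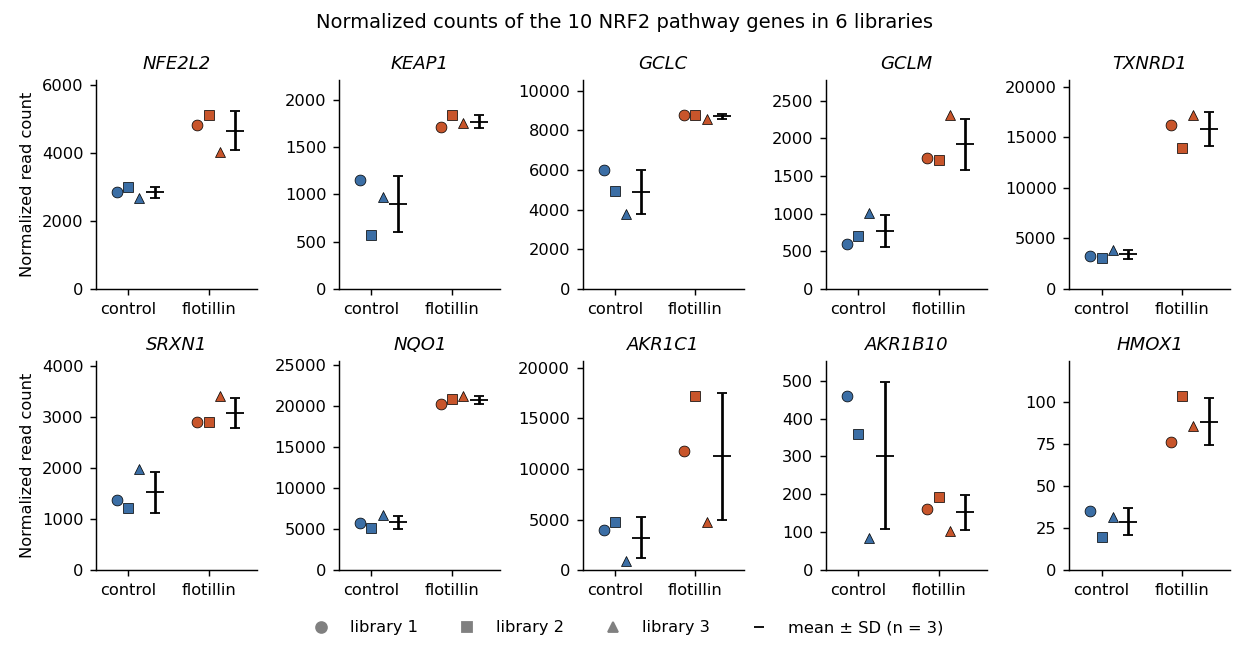
Normalized read count (vertical axis, from 0, own scale per gene) of each of the 10 genes in the 3 control and 3 flotillin libraries; the bar beside the points is the mean with its SD over 3 libraries. The groups overlap for AKR1C1 and AKR1B10, whose library 3 (triangle) is the lowest of its group in both lines, and do not overlap for the other 8 genes.

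Both regulators had higher transcript levels in the flotillin line. NFE2L2 (ENSG00000116044; GRCh37 locus on chromosome 2, 178092323 to 178408564, which joins it to neighbouring genes) stood at 2859, 3002 and 2664 normalized counts in control and at 4816, 5133 and 4023 in flotillin libraries. Its groups were apart, and library 3 was the lowest in each. The mean went from 2842 ± 170 to 4658 ± 572 (SD, n = 3), 1.64-fold, and the log2 fold change was 0.70 (adjusted p = 0.00803, authors' deposited table). This was the smallest of the 9 rises. The authors' deposited FPKM table gives it a q of 0.336.

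KEAP1 (ENSG00000079999, chromosome 19, 10596796 to 10614054), the repressor of the pathway, had 1148, 575 and 970 normalized counts in control and 1717, 1845 and 1752 in flotillin libraries. The control libraries differed among themselves by 2.00-fold, while the flotillin libraries lay within 1.07-fold of each other. Its mean was 1.97-fold higher in flotillin cells, 1771 ± 66.2 against 898 ± 293 (SD, n = 3). The authors' deposited table gives a log2 fold change of 0.94 (adjusted p = 0.0110), and the FPKM table a q of 0.00467. The pathway's activator and its repressor were thus both higher at the transcript level.

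GCLC and GCLM encode the catalytic and the modifier subunit of glutamate-cysteine ligase, the rate-limiting enzyme of glutathione synthesis. GCLC (ENSG00000001084, chromosome 6, 53362139 to 53481969) had 6011, 4932 and 3765 normalized counts in control and 8796, 8773 and 8581 in flotillin libraries. The flotillin libraries were nearly equal and all above the highest control library. The mean rose 1.78-fold, from 4903 ± 1123 to 8717 ± 118 (SD, n = 3; adjusted p = 0.00866 in the authors' deposited table), with a q of 0.192 in the FPKM table. The locus given also holds RP1-27K12.2, with authors' means of 360 and 813 (adjusted p = 0.00228 in the authors' deposited table). RP1-27K12.4 in the same locus had means of 9.27 and 5.40 (adjusted p = 0.506 there).

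GCLM (ENSG00000023909, chromosome 1, 94350761 to 94374966) had 602, 708 and 1005 normalized counts in control and 1736, 1705 and 2314 in flotillin libraries, with library 3 the highest of each group. Its mean rose 2.49-fold, from 772 ± 209 to 1919 ± 343 (SD, n = 3). Its log2 fold change was 1.26 (adjusted p = 0.000159, authors' deposited table). Per transcript length, GCLC stood 12.4 times above GCLM in control and 8.62 times in flotillin cells by the authors' FPKM. By library, GCLM counted 10.0, 14.3 and 26.7 per 100 GCLC normalized counts in control and 19.7, 19.4 and 27.0 in flotillin cells. Those ratios overlap between the groups, because control library 3 had low GCLC and high GCLM.

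The thioredoxin branch held the largest difference of the 10 genes. TXNRD1 encodes the cytosolic thioredoxin reductase, a selenoprotein that passes electrons from NADPH to thioredoxin. TXNRD1 (ENSG00000198431, chromosome 12, 104609559 to 104744062) had 3275, 3105 and 3901 normalized counts in control and 16267, 13995 and 17259 in flotillin libraries. The lowest flotillin library was far above the highest control library. From 3427 ± 419 to 15840 ± 1673 (SD, n = 3), the mean rose 4.62-fold. Its log2 fold change was 2.16 (adjusted p = 2.77e-20, authors' deposited table). The locus given also holds a pseudogene, RPL18AP3, with authors' means of 4.18 and 8.12.

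SRXN1 encodes sulfiredoxin, which restores overoxidised peroxiredoxins. SRXN1 (ENSG00000172070, chromosome 20, 627259 to 656825) had 1373, 1229 and 1986 normalized counts in control and 2912, 2913 and 3419 in flotillin libraries, with library 3 the highest of each group. Its mean rose 2.01-fold, to 3082 ± 292 from 1529 ± 402 (SD, n = 3; adjusted p = 0.00238 in the authors' deposited table). The reads of this gene are uncertain in part: 84.7% of the windows of 50 bases in its longest GENCODE 29 coding transcript also occur in another gene model. The FPKM table places AL121758.1 in the same locus, whose authors' means were 195 and 441.

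NQO1, an NAD(P)H dehydrogenase that reduces quinones in a single step, is the classical NRF2 target. NQO1 (ENSG00000181019, chromosome 16, 69743304 to 69760707) had 5724, 5173 and 6739 normalized counts in control and 20255, 20818 and 21205 in flotillin libraries. The flotillin libraries were nearly equal, and each was over the highest control library. The mean rose 3.53-fold, from 5879 ± 794 to 20759 ± 478 (SD, n = 3) and the log2 fold change was 1.78 (adjusted p = 3.50e-15, authors' deposited table). NQO1 had the highest FPKM of the 10 genes in both groups, at 189 and 592.

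The aldo-keto reductases AKR1C1 and AKR1B10 reduce steroid ketones and lipid aldehydes. AKR1C1 (ENSG00000187134, chromosome 10, 5000044 to 5022159) had 4003, 4760 and 969 normalized counts in control and 11817, 17206 and 4730 in flotillin libraries. Library 3 was low in both groups, and flotillin library 3 lay just under control library 2, so the groups overlap. The mean was 3.47-fold higher in flotillin cells, 11251 ± 6257 against 3244 ± 2006 (SD, n = 3). The authors' deposited table gives it an adjusted p of 0.0140, and the FPKM table a q of 0.000804. Taken separately, the ratio of flotillin to control was 3.31 over libraries 1 and 2 and 4.88 in library 3. AKR1C1 shares sequence with its paralog AKR1C2, in which 28.3% of its windows of 50 bases occur, so reads may be shared or dropped between them. The locus given for AKR1C1 also holds AL713867.1, with authors' means of 275 and 315 (adjusted p = 0.847 in the authors' deposited table).

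AKR1B10 (ENSG00000198074, chromosome 7, 134212344 to 134226160) was the only one of the 10 genes with a lower mean in flotillin cells. It had 459, 361 and 85.9 normalized counts in control and 162, 193 and 104 in flotillin libraries. Control library 3 lay below all flotillin libraries, so the groups overlap. The means were 302 ± 193 and 153 ± 45.1 (SD, n = 3), and the log2 fold change of -0.86 in the authors' deposited table did not pass (adjusted p = 0.185). In the FPKM table the log2 fold change was -1.02 with a q of 0.0472. The ratio of flotillin to control was 0.433 over libraries 1 and 2 and 1.21 in library 3. Of its windows of 50 bases, 11.6% occur in AKR1B15, its closest paralog by this measure.

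HMOX1 encodes the inducible heme oxygenase, which opens heme to biliverdin, iron and carbon monoxide. HMOX1 (ENSG00000100292, chromosome 22, 35776354 to 35790207) was the least abundant of the 10, with 37, 21 and 32 reads in control and 76, 102 and 83 reads in flotillin libraries. In normalized counts these were 35.1, 20.1 and 31.6 against 76.0, 103 and 85.3, with no overlap. Its mean rose 3.05-fold, from 28.9 ± 7.86 to 88.2 ± 13.9 (SD, n = 3; adjusted p = 0.000343 in the authors' deposited table). At this depth the gene stayed low in both groups, at 0.761 and 2.098 FPKM.

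**Figure D2:**
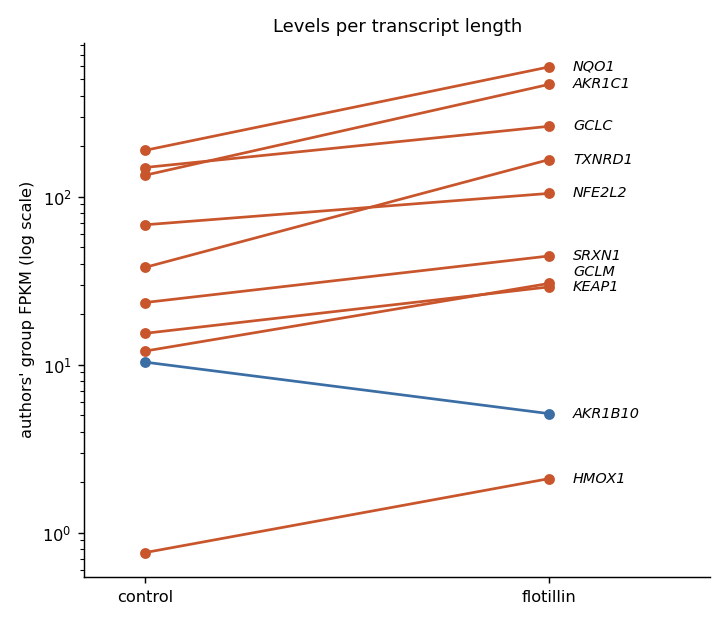
Authors' FPKM of the 10 genes (vertical axis, log scale) in the control and flotillin groups, 1 value per group with no error given; lines join the groups, orange where the flotillin value is higher and blue where it is lower. NQO1 is highest and HMOX1 lowest in both groups, and AKR1B10 alone goes down.

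Per transcript length the order of the genes changed little. By the authors' FPKM the control order was NQO1 (189), GCLC (149), AKR1C1 (134), NFE2L2 (68.1), TXNRD1 (38.0), SRXN1 (23.4), KEAP1 (15.4), GCLM (12.1), AKR1B10 (10.4) and HMOX1 (0.761). In flotillin cells AKR1C1 (466) stood above GCLC (262), TXNRD1 (166) above NFE2L2 (105) and GCLM (30.5) above KEAP1 (29.04), while the other 4 genes kept their place. The group FPKM carry no error in the table, so neighbours with close values, such as GCLM and KEAP1 in flotillin cells, cannot be ordered. In these bulk libraries more cells with a transcript and more of it per cell cannot be told apart.

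The spread between libraries differed among the genes. The coefficient of variation of AKR1C1 and AKR1B10 was 61.9% and 64.1% in control libraries, against 5.98% to 32.7% for the other 8 genes. In flotillin libraries it was 55.6% and 29.5%, against 1.35% to 17.9%. In library 3 the other 8 genes lay between 0.688 and 1.53 times the mean of libraries 1 and 2. AKR1C1 stood there at 0.221 times that mean in control and 0.326 times in flotillin cells, and AKR1B10 at 0.210 and 0.586 times. Within library 3 alone all 10 genes were higher in flotillin than in control cells, AKR1B10 by 1.21-fold and the others by 1.51-fold to 4.88-fold. Cell cycle markers moved with library 3 as given above, and their part in these differences was not tested.

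**Figure D3:**
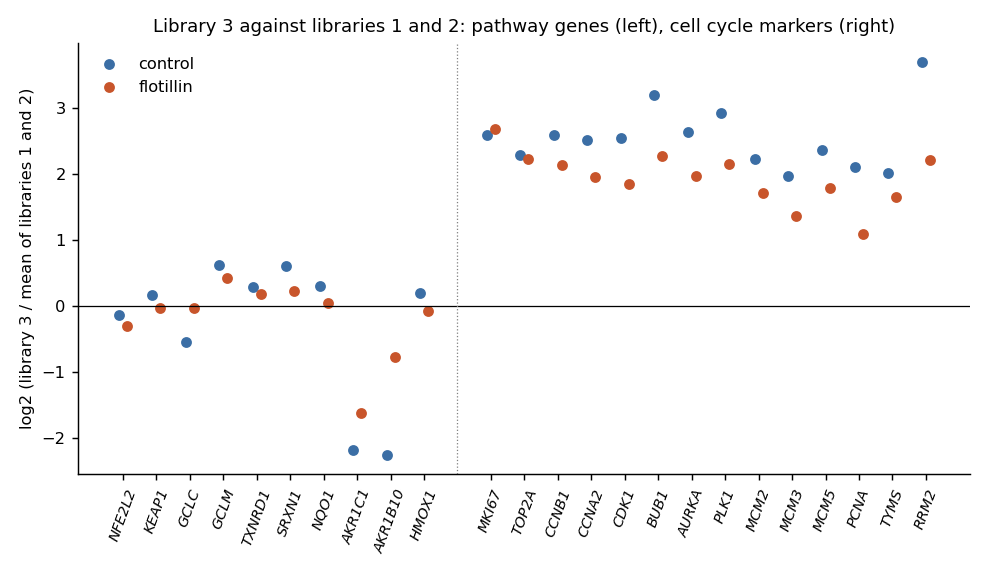
Log2 ratio of library 3 to the mean of libraries 1 and 2 (vertical axis), for the 10 genes (left of the dotted line) and 14 cell cycle markers (right), in control (blue) and flotillin (orange) cells. AKR1C1 and AKR1B10 lie below 0 in both groups, and all cell cycle markers lie above 0.

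On the 6 solved libraries, limma called 8 of the 10 genes higher and 0 lower at an adjusted p under 0.05, against 12.2% and 11.1% of 15912 genes. The log2 fold changes were 2.21 ± 0.18 (SE) for TXNRD1 (adjusted p = 0.000550) and 1.83 ± 0.18 for NQO1 (adjusted p = 0.00103). For AKR1C1 limma gave 1.90 ± 0.71 (adjusted p = 0.0956) and for AKR1B10 -0.71 ± 0.62 (adjusted p = 0.415). Without library 3 of both groups, limma called 9 higher and 1 lower, against 23.7% and 20.6% of all genes. There AKR1C1 stood at 1.71 ± 0.22 (adjusted p = 0.000429) and AKR1B10 at -1.20 ± 0.25 (adjusted p = 0.00405). The same fit called 11 of the 14 cell cycle markers higher and 0 lower, where limma on all 6 libraries called 0 either way. With all 6 libraries and library 3 as a term beside the group, a fit chosen after seeing the data, limma called 9 higher and 0 lower, against 24.6% and 21.5% of all genes. AKR1C1 stood at 1.90 ± 0.20 (adjusted p = 7.06e-05) in that fit and AKR1B10 at -0.71 ± 0.30 (adjusted p = 0.0798).

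Leaving out a single library moved the limma count to 5 genes without control library 2, 3 without flotillin library 1 and 3 without flotillin library 2, where 4.42%, 2.22% and 2.52% of all genes were called higher and 5.81%, 4.05% and 4.63% lower. Those shares were 5.04% and 5.8% without control library 1, 22% and 18.3% without control library 3, and 6.55% and 7.78% without flotillin library 3. GCLM, NQO1 and TXNRD1 kept an adjusted p under 0.05 with each library left out, the highest being 0.0435, 0.00906 and 0.00526. For NFE2L2, KEAP1, GCLC, HMOX1 and SRXN1 the highest limma values were 0.108, 0.102, 0.0971, 0.0695 and 0.0636. AKR1C1 did not pass with any single library left out, at limma adjusted p of 0.0636 to 0.236. For AKR1B10 these values ran from 0.0115 to 0.804.

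**Figure D4:**
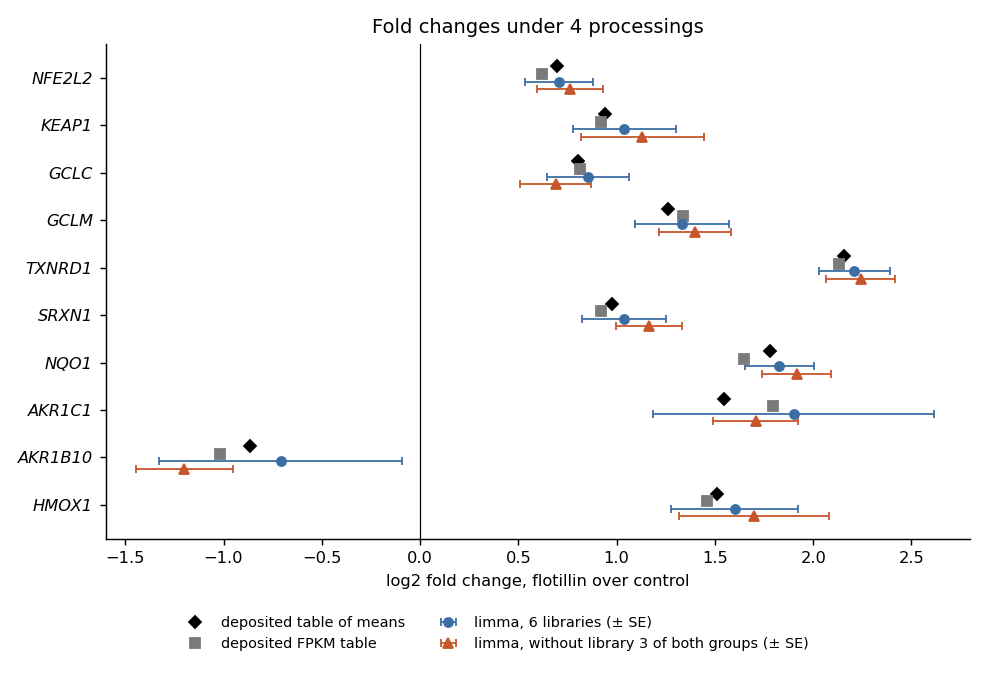
Log2 fold change of flotillin over control (horizontal axis) for the 10 genes in the deposited table of means, the deposited FPKM table and limma on all 6 libraries or without library 3 of both groups; bars are the SE of the limma fits. TXNRD1 lies farthest to the right and AKR1B10 alone lies left of 0 in all 4 sets of estimates, and AKR1C1 has the widest bar of the genes on the right.

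By their log2 profile over the 6 libraries, the genes most like TXNRD1, the gene with the largest difference, were EPS8, SH3BGRL and C4orf34. Their root mean square distances from it were 0.173, 0.189 and 0.201 on the log2 scale, among 11377 genes with a mean of at least 100. EPS8 encodes an adaptor of actin and receptor signalling, and its authors' means were 1210 and 5038.

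Other genes of NRF2 and antioxidant metabolism were counted from 9 lists with 129 genes, all found in the table and 121 tested. Of the 121, 45 rose and 10 fell by the authors' deposited table, where 11.6% and 12% of all tested genes did. Their median log2 fold change was 0.45. FPKM gave 30 rises with 13 falls among 119 tested, where 6.93% and 10% of all its tested genes were called. Limma lacking library 3 of both groups gave 54 with 18 among 119, where 23.7% and 20.6% of all genes were called. The counts of both by list below stand beside these shares.

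Among 16 regulators, 5 rose and 1 fell, with a median log2 fold change of 0.17. SQSTM1, encoding the autophagy receptor p62 that competes for KEAP1, went from 4226 ± 2314 to 8725 ± 1167 normalized counts (SD, n = 3; adjusted p = 0.0373 in the authors' deposited table). TRIM16 rose 1.93-fold and BTRC, a ubiquitin ligase subunit gene, 1.79-fold. NFE2L3, the gene of a related factor, fell 2.60-fold, from 387 ± 136 to 149 ± 20.1 (SD, n = 3). In the FPKM table none of these 5 rises passed, with q-values of 0.333 for SQSTM1, 0.627 for TRIM16 and 0.211 for BTRC. Its 1 rise in the list was DPP3 (q = 0.0250), named here after its values were seen, whose adjusted p in the authors' deposited table is 0.865. DPP3 had 1413, 1127 and 0 solved reads in control and 0, 2436 and 2196 in flotillin libraries. The cause of the counts of 0 was not tested.

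Of 27 tested glutathione genes 5 rose and 1 fell, with a median of 0.12. The median was -0.04 for all tested genes and 0.11 for those whose mean reached 100, a filter not applied to this list. GSTZ1 rose 2.73-fold, GLRX, the glutaredoxin gene, 2.58-fold and GPX4, which reduces lipid peroxides, 2.37-fold. SLC3A2, the heavy chain of amino acid transporters including the cystine carrier, fell 6.87-fold, at 20755 ± 3407 in control and 3021 ± 838 in flotillin cells (SD, n = 3; adjusted p = 4.86e-19 in the authors' deposited table). FPKM called 3 rises and 2 falls here, but its rises are not the 3 named. It called GSTZ1 (q = 0.000804), while GLRX had a q of 0.0743 and GPX4 of 0.285.

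In the thioredoxin and peroxiredoxin list 13 of 18 genes rose and 0 fell in the authors' deposited table, with a median log2 fold change of 0.83. SESN3, a sestrin gene, rose 4.53-fold from a low level of 17.01 ± 3.50 to 77.1 ± 23.7 normalized counts (SD, n = 3). The peroxiredoxin genes PRDX2 and PRDX1 rose 2.55-fold and 2.51-fold, PRDX1 from 6042 ± 2938 to 15141 ± 2935 (SD, n = 3). FPKM called 7 of the 18 higher.

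NADPH-supplying enzymes gave 5 rises and 0 falls among 12 tested, with a median of 0.61. TALDO1, encoding transaldolase, rose 2.52-fold and ME1, the cytosolic malic enzyme, 2.23-fold. Without library 3 of both groups limma called 9 rises and 1 fall, where 23.7% and 20.6% of all genes were called.

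Reductases and drug-metabolising enzymes moved both ways, with 7 rises and 4 falls among 20. AKR1C2 and AKR1C3, paralogs of AKR1C1, rose 4.93-fold and 3.65-fold, and AKR1B1, a paralog of AKR1B10, rose 4.58-fold, with 4925 ± 1821 in control and 22569 ± 10782 in flotillin cells (SD, n = 3). As for AKR1C1, library 3 of each group held less of these genes than libraries 1 and 2 averaged, at 0.256 and 0.492 times for AKR1C2 in control and flotillin cells. UGT1A6, a glucuronosyltransferase gene that shares exons with its gene cluster, went from 144 ± 62.3 to 0.667 normalized counts in the flotillin mean (2 reads in all, so no fold is given), and CES1, a carboxylesterase gene, from 78.1 ± 52.2 to 8.80 ± 1.66. The FPKM table gives UGT1A6 a q of 0.167. ALDH2 stood at 31.8 ± 30.0 and 5.75 ± 3.11 (SD, n = 3; adjusted p = 0.0186 in the authors' deposited table), with overlap between the groups.

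Heme and iron genes had 5 rises and 1 fall among 10. FTH1 and FTL, the ferritin chains that store iron, rose 3.09-fold and 2.70-fold, FTH1 between the authors' means of 26159 and 80842. ALAS1, the first enzyme of heme synthesis, rose 1.95-fold, and the transporter gene ABCB6 fell 2.40-fold, with a q of 0.108 in the FPKM table. Export pumps were the list without a rise, with 3 falls among 5 tested: ABCC2 fell 4.81-fold, with 14182 ± 6240 in control and 2949 ± 195 in flotillin cells (SD, n = 3), ABCC4 1.97-fold and ABCC1 1.47-fold. Limma without library 3 of both groups called 5 falls among 6 pumps fitted, where 20.6% of all genes were called lower.

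Among 7 other reported NRF2 targets 3 rose: OSGIN1 (5.73-fold, from 21.2 ± 10.1 to 122 ± 15.8 normalized counts, SD, n = 3), TRIM16L (3.53-fold) and PIR (2.15-fold). The FPKM table gives OSGIN1 a q of 0.747 and called 2 falls in this list. Of 6 tested superoxide and peroxide enzymes outside the pathway, 2 rose, SOD1 2.29-fold and CAT, the catalase gene, 2.23-fold. Limma without library 3 of both groups called 4 of 6 of these superoxide and peroxide enzymes higher, where 23.7% of all genes were.

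**Figure D5:**
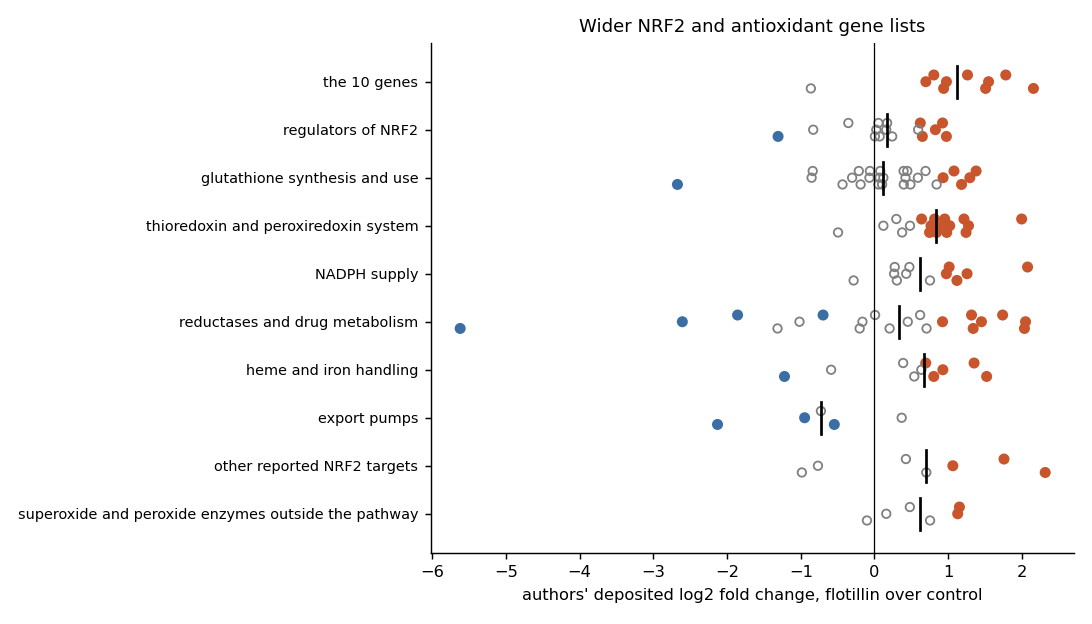
Authors' deposited log2 fold change (horizontal axis) of each tested gene, by list; filled points have an adjusted p under 0.05 (orange higher, blue lower in flotillin cells), open points do not, and black bars are list medians. The thioredoxin and peroxiredoxin list has 13 filled points on the right, and the export pumps have 3 on the left and none on the right.

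Markers of cell type also differed. Of 7 tested breast epithelial markers 5 fell and 0 rose. FPKM called 1 of the 7 higher and 5 lower, where 6.93% and 10% of all its tested genes were. Limma without library 3 of both groups called 1 of 6 higher and 4 lower, against 23.7% and 20.6% of all genes. The summed normalized count of the 7 with solved reads was 50338 to 59817 in control and 7076 to 8864 in flotillin libraries. That sum leaves out KRT5, whose authors' means were 48381 in control and 67351 in flotillin cells. KRT18, which is in the sum, is listed at 0 in both groups. Fibroblast markers gave 3 rises and 1 fall among 6 tested, with a summed count of 553 to 1184 in control and 494 to 1939 in flotillin libraries without DCN, whose authors' means were 4659 and 42467; THY1 is listed at 0. Immune markers had 0 rises and 3 falls among 4 tested, with summed counts of 1055 to 3120 and 1219 to 1826, and CD3E and CD163 at 0. Endothelial markers summed to 271 to 940 in control and 417 to 799 in flotillin libraries, with neither of 2 tested called and CDH5, VWF and CLDN5 at means under 3. The part of these differences in the levels of the NRF2 pathway genes was not tested.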

How the data were processed

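RNA from 3 control and 3 flotillin samples, grouped by their titles, was sequenced from a stranded mRNA kit on a HiSeq 4000, per the labels' protocols. The submitters' processing notes name DESeq2 1.18.1, HTSeq 0.9.1, HISAT2 2.1.0 and bcl2fastq, with build GRCh37. Strand use in counting was not given in the sources used here. One deposited table has a signal column for each group, which the values show to be means of size-factor-normalized counts, with the authors' log2 fold changes and p-values per the file headers. The second deposited table, from the Tuxedo pipeline per its name, holds group FPKM with log2 fold changes, a test score that was not used, and q-values for 17022 tested genes, per the file headers. Its loci are given counted from 1.

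Each mean is a sum of 3 whole reads over 3 size factors, written with 15 significant digits, and a search over whole numbers gave a single solution for 99.7% of the means above 0 in each group. On simulated reads no solution was wrong; with means of 10000 or more, 97.67% and 94.67% of 300 control and flotillin genes had a single solution. Altered means under 10000 had a solution in 0.0% and 0.1% of 2000 cases. At 10000 or more 47.73% and 38.25% had one, so there a solution alone is weak evidence; this touches TXNRD1, NQO1 and AKR1C1 in the flotillin group. The 99 genes without a single solution, all with a group mean of at least 21062, take 21.4% (control) and 19.6% (flotillin) of all normalized counts; only the authors' means are given for them.

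Calls are an adjusted p under 0.05 in the authors' table of means. Folds between the group means are plain ratios, and the deposited log2 fold changes are not their log2. For all 10 genes the deposited value was smaller in size than the log2 of the ratio. AKR1C1 had 1.55 deposited against 1.79, and TXNRD1 2.16 against 2.21. A second fit used limma 3.58.1 under R 4.3.3, with its robust and trend settings, on log2(normalized count + 1) of genes whose mean reached 10, and p-values were adjusted by the Benjamini-Hochberg method, so its fold changes are on that scale. In data simulated for this comparison over 15912 genes it called 56% of genes changed 2-fold and 100% of those changed 4-fold, with 1.27% of calls false. That simulation gave every gene the same dispersion (0.0371), changed only a small set of genes and held no library 3 difference. Its shares may therefore not hold for the solved libraries. No count model was fitted to the solved reads. Other tools were Python 3.11.15, numpy 2.4.6, pandas 2.3.3, numba 0.67.0 and matplotlib 3.10.9.

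The 10 genes and all lists were chosen with earlier results of these data known. From each wider list up to 3 called rises and 3 called falls with at least 10 in a group mean were named, by size of deposited log2 fold change. Some items that this rule or the marker lists name are not reported here. Alternatives were the FPKM table, other thresholds, filters, pseudocounts and centring, leaving out libraries and, added after seeing the data, library 3 as a term. MSRB1 was matched by its identifier, and PECAM1 was not matched.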

Additional observations from a re-analysis of the deposited data

How the results depend on the processing

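All 10 genes kept the direction of their log2 fold change in the FPKM table, as a plain ratio of means, after subtracting the 0.11 median of abundant genes, and in limma on 6 libraries, without library 3 of both groups and with library 3 as a term (the last chosen after seeing the data). The ratio and the subtraction have no p of their own; of the other 40 values 35 kept their side of the threshold. NFE2L2 and GCLC (FPKM) and AKR1C1 (limma on 6 libraries without that term) no longer passed, and AKR1B10 passed in FPKM and without library 3. Falls among the 10 genes, 0 in the deposited table and in limma, became 1 in the FPKM table and 1 without library 3 of both groups. With each library left out in turn limma called 3 to 8 of them higher and 0 to 1 lower. For the wider lists limma called 43 rises and 9 falls; with each library left out it called 11 to 52 rises and 4 to 14 falls, and without library 3 of both groups there were 18 falls against 10 in the deposited table. With library 3 as a term there were 58 rises and 17 falls, where 24.6% and 21.5% of all genes were called. Without library 3 of both groups those shares were 23.7% and 20.6%, and for each single library left out they are given above. Counts that moved by over 1.5 times by list, beside those given above, were falls among regulators (1, and 2 without library 3), glutathione genes (1, and 2 without library 3), heme and iron genes (1, and 0 in FPKM) and other targets (0, and 1 without library 3). The cause of these changes was not tested. No paired analysis was possible because the deposited columns carry no replicate numbers; the term for library 3 marks the libraries that stand apart and pairs no samples. HMOX1, with 21 to 102 reads per library, is the gene most limited by depth.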
